A study of Homo sapiens with 9 samples.

Results

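The transcripts described here encode 10 immediate early transcription factors: the EGR zinc finger factors EGR1, EGR2 and EGR3, the FOS family members FOS, FOSL1 and FOSL2, the JUN family members JUN, JUNB and JUND, and ATF3. They were taken by gene symbol from a table of 36810 genes, and all 10 were present. The rule for taking them uses no measured value, but the genes were chosen with earlier results of these data known. Counts of them set beside shares over all genes are therefore descriptions. RNA came from 143B, a human osteosarcoma cell line obtained by transforming HOS osteosarcoma cells with the Kirsten sarcoma virus, which carries an activated RAS gene. The line was sampled in 3 groups of 3 libraries: control cells labelled 0 h, cells given 0.5 µM XD23 for 24 h, and cells given 0.5 µM XD23 for 48 h. XD23 is known from the labels by this code name alone, and the labels name no vehicle. No control was labelled 24 h or 48 h, so exposure to XD23 and time in culture cannot be told apart in any comparison. The libraries of a group are not said to come from separate cultures, so p-values measure only the spread between these libraries.

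Immediate early genes are transcribed within minutes of a growth factor or stress signal, without new protein synthesis, and most of their mRNAs are short-lived. MAP kinases reach them through serum response factor (SRF) and its ETS-type partners, which bind DNA elements called CArG boxes, and through CREB and ATF factors. EGR proteins bind GC-rich elements and are held in check by the co-repressors NAB1 and NAB2. JUN proteins pair with FOS or ATF proteins through leucine zippers to form AP-1, which drives genes of proliferation, invasion and matrix breakdown. In bone, FOS is known for causing osteosarcoma when overexpressed in mice, and FOSL1 and FOSL2 for roles in osteoblasts and matrix formation.

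Levels are FPKM, fragments per kilobase of transcript and scaled to the fragment total of the library, so they can be set side by side between genes. Depth worked out from these values was 18341542 to 22901830 fragments per library. Genes with at least 1 FPKM in at least 3 libraries were tested (13657). On a principal component analysis of the tested genes, the second component separated the third 24 h library (score 24.7) from the remaining 8 (scores -9.06 to 6.96). Of the lineage markers, VIM lay at 297 to 389 FPKM and SPARC at 27.6 to 43.3 FPKM in every library, and RUNX2 at 4.06 to 6.61 FPKM, while the osteoblast genes SP7, ALPL, COL1A1 and COL1A2 stayed at or below 0.703 FPKM. The leukocyte gene PTPRC reached at most 0.0145 FPKM, CD14 0.176 FPKM, the endothelial gene CDH5 0.0411 FPKM and the neural gene SOX10 0.0362 FPKM. The endothelial gene PECAM1 lay at 0.215 to 0.699 FPKM and the neural gene TUBB3 at 0.301 to 0.558 FPKM. The epithelial gene EPCAM was present at 2.50 to 4.69 FPKM, while the epithelial gene KRT19 reached at most 0.163 FPKM.

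RefSeq promoter windows (GRCh38.p14, 250 bases before to 50 bases after a start) were on hand for 8 of the 10 genes, EGR3 and FOSL1 being the others, and 5 of these windows are printed. They are those of EGR1 and EGR2 with a CArG box, those of JUN and ATF3 with TGACATCA, and that of JUNB, the AP-1 gene with the largest log2 fold change. The windows of JUND, FOSL2 and FOS, whose matches are given below, are not printed. Both strands were searched, and capitals mark matches. The CArG box matched 2 times before the EGR1 start, at 105 and 83 bases, and 1 time in 1 of the EGR2 windows, at 71 bases. The other EGR2 windows held none, and 1.29% of all 35116 windows hold one. The JUN window and 1 of the ATF3 windows hold TGACATCA, 67 and 123 bases before the start, against 2.61% of all windows. It is an element that JUN with ATF2 is known to bind at JUN itself. This element and TGACG were added to the search after the windows had been read. The cyclic AMP element TGACGTCA was in the JUND window, 200 bases before the start (1.85% of all windows), and TGACTCA or TGAGTCA, the AP-1 element, was in the FOSL2 window (4.95%). TATAAA was found in the JUNB window, 31 bases before the start, in the FOS window, 33 bases before it, and in 1 of the ATF3 windows (11.5%). The shorter TGACG, the core of the cyclic AMP element and so counted within it too, was in 7 of the 11 windows of these genes (24.6% of all windows). Those 7 windows belong to 7 of the 8 genes. The EGR element GCGTGGGCG or GCGGGGGCG was in none of the 11 windows (5.77%). A match is a description of these letters, not a shown binding site.
EGR1 (chr5:138465229-138465528, plus strand; capitals, CArG boxes): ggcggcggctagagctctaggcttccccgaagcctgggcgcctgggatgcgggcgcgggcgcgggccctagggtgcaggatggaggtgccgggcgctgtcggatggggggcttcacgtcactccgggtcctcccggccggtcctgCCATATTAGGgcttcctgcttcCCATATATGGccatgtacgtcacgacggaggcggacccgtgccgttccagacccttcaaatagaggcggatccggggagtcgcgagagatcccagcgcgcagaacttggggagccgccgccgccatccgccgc
EGR2 (chr10:62816317-62816616, minus strand; capitals, CArG box): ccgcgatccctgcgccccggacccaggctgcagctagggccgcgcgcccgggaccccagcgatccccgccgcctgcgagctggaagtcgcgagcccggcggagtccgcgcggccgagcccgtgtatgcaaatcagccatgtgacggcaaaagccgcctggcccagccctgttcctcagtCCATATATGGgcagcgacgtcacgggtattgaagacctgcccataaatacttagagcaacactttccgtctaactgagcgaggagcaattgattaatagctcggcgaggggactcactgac
JUN (chr1:58783998-58784297, minus strand; capitals, TGACATCA): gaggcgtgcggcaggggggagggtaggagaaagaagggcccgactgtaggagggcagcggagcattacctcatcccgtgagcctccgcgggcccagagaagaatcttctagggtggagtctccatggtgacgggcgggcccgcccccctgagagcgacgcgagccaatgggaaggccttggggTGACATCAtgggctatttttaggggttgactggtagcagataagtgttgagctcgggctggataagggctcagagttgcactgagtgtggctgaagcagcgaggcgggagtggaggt
ATF3 (chr1:212565157-212565456, plus strand; capitals, TGACATCA): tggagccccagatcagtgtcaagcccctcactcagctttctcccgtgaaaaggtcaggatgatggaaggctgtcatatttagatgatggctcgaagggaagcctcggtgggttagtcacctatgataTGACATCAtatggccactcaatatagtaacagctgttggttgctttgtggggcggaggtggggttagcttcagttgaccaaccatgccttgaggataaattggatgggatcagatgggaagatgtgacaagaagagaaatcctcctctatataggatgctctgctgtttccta
JUNB (chr19:12791236-12791535, plus strand; capitals, TATAAA): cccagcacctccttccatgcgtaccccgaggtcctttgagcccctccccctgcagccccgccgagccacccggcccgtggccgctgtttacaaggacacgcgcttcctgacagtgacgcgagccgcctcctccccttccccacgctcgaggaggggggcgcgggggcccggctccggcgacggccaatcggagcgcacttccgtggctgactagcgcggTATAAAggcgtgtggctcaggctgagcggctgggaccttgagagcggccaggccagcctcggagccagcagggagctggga

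After 48 h with XD23 most of these factors stood higher than in control, and after 24 h they did not. Of the 8 factors that passed the filter without help from the 48 h libraries, 6 rose at 48 h, FOSL1 fell and FOSL2 was not called (limma on log2(FPKM + 1), adjusted p under 0.05 over all 13657 genes). Over all genes tested, 13.3% were called higher and 15.2% lower in that comparison. The 48 h and control groups did not overlap in any of these 8 factors, against 50.4% of all genes tested without overlap. EGR2 and EGR3 were called higher as well, but they passed the filter only through the 48 h libraries, where they were high, so they are counted apart. At 24 h none of the 10 was called, at adjusted p of 0.666 to 0.988 (limma), against 0.00732% of all genes (1 of 13657, the small RNA pseudogene RNU6-548P, lower). At an unadjusted p under 0.05 the count was 0 of 10, against 7.43% of all genes. Markers differed between the groups in both directions. Of the mesenchymal and osteoblast genes, RUNX2 (4.19 ± 0.112 FPKM at 48 h, 6.34 ± 0.296 FPKM in control) and SPARC (28.1 ± 0.48 and 41.9 ± 1.65 FPKM) had lower means at 48 h, and VIM (357 ± 15 and 304 ± 7.09 FPKM) had a higher one. The epithelial gene EPCAM was at 2.75 ± 0.242 FPKM at 48 h and 3.88 ± 0.386 FPKM in control, and KRT19 at 0.0966 ± 0.0481 and 0.111 ± 0.0504 FPKM. The endothelial gene PECAM1 was at 0.658 ± 0.0446 and 0.386 ± 0.0442 FPKM with CDH5 near 0. The part of these markers in the results was not tested. Bulk RNA cannot tell a higher level in every cell from a larger share of cells that express the gene.

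**Figure D1:**
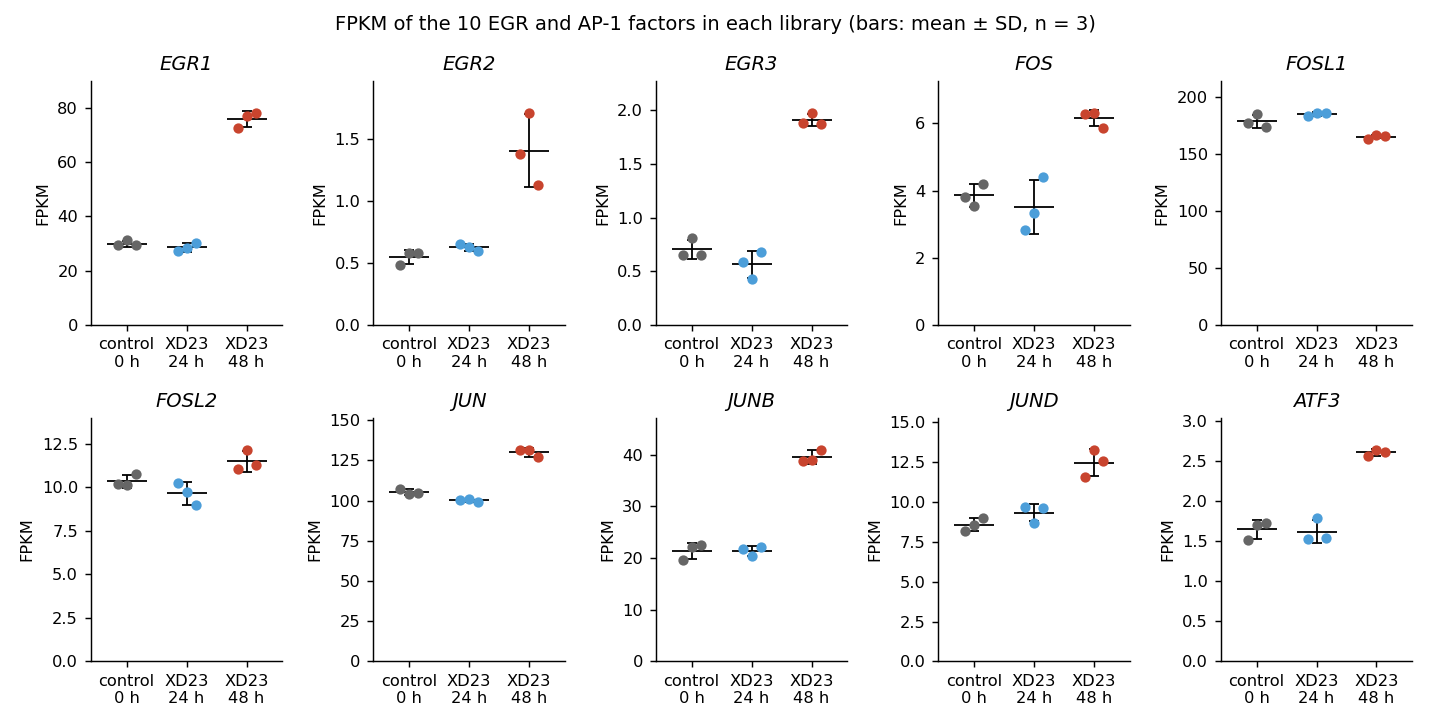
FPKM (y axis, linear, from 0, scaled per gene) of the 10 factors in the 3 control, 3 XD23 24 h and 3 XD23 48 h libraries; points are libraries, and black bars the mean ± SD (n = 3). The 48 h points of EGR1, at 72.8 to 78.3 FPKM, lie above all of its control points, at 29.3 to 31.3 FPKM, while those of FOSL1 lie below its control points.

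EGR1, the most abundant of the 3 EGR factors and the one quickest to respond to ERK signalling in many cells, had the highest fold change of the 10 on the log2(FPKM + 1) scale, though not as a ratio of means, where EGR3 (2.72) and EGR2 (2.57) stood above it (2.53) against control. It lay at 29.3, 31.3 and 29.4 FPKM in control, at 27.2, 28.3 and 30.4 FPKM at 24 h and at 72.8, 77.03 and 78.3 FPKM at 48 h. All 48 h libraries stood above all others, while control and 24 h overlapped. The mean was 2.53-fold higher at 48 h than in control (log2 fold change 1.31 ± 0.05 SE; limma, adjusted p = 6.36e-06) and 2.66-fold higher than at 24 h (1.38 ± 0.05; limma, adjusted p = 2.88e-06). The gene (ENSG00000120738, chromosome 5, 138465490 to 138469315, plus strand, GRCh38) is the one whose promoter carries the 2 CArG boxes printed above, and its values rest on 1693 to 5534 fragments per library.

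EGR3 and EGR2, which carry nearly the same zinc fingers as EGR1 and are known from muscle spindle and nerve myelination in mice, were scarce. EGR3 (ENSG00000179388, chromosome 8, 22687659 to 22693302, minus strand) had 0.652, 0.805 and 0.65 FPKM in control, 0.585, 0.422 and 0.68 FPKM at 24 h and 1.88, 1.98 and 1.87 FPKM at 48 h, on 46 to 228 fragments. EGR2 (ENSG00000122877, chromosome 10, 62811996 to 62919900, minus strand) had 0.482, 0.579 and 0.577 FPKM in control, 0.653, 0.626 and 0.596 FPKM at 24 h and 1.38, 1.71 and 1.13 FPKM at 48 h, on 40 to 159 fragments. In both genes the 48 h libraries did not overlap the others. Both had passed the filter only through these libraries, so neither that separation nor their calls carry weight. The 48 h values of EGR2 were the most scattered of all factors in that group (coefficient of variation 20.8%). On the log2(FPKM + 1) scale, which understates changes at such levels, the fold changes against control were 0.77 ± 0.09 for EGR3 (limma, adjusted p = 0.000609) and 0.63 ± 0.11 for EGR2 (limma, adjusted p = 0.0032). As ratios of mean FPKM they were 2.72 and 2.57, close to the 2.53 of EGR1. The fourth family member, EGR4, reached at most 0.0211 FPKM in any library and was listed at 0 in all 48 h libraries.

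The shares of the 3 genes within the summed EGR level were accordingly alike. EGR1 made up 96.0% ± 0.256 of it in control, 96.0% ± 0.387 at 24 h and 95.8% ± 0.451 at 48 h (SD, n = 3), and the exact permutation p for 48 h against control was 0.5. The sum itself was 79.4 ± 2.89 FPKM at 48 h, against 31.3 ± 1.24 FPKM in control.

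Among the JUN family, JUNB moved most and JUN least. JUNB (ENSG00000171223, chromosome 19, 12791496 to 12793315, plus strand), a JUN protein with weaker transforming activity than JUN, had 19.6, 22.04 and 22.5 FPKM in control, 21.8, 20.3 and 22.1 FPKM at 24 h and 38.7, 38.9 and 41.0 FPKM at 48 h. Its 48 h libraries all lay above the rest, and its mean was 1.85-fold that of control (log2 fold change 0.86 ± 0.06; limma, adjusted p = 4.88e-05). HOOK2 overlaps JUNB on the other strand, and strand-specific counting is not stated, but HOOK2 lay at 1.43 ± 0.0859 FPKM at 48 h and 1.46 ± 0.199 FPKM in control.

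JUN (ENSG00000177606, chromosome 1, 58780788 to 58784327, minus strand), the founding AP-1 subunit and itself an AP-1 target, was already abundant. It had 107, 104 and 105 FPKM in control, 100.3, 100.9 and 99.3 FPKM at 24 h and 132, 131 and 127 FPKM at 48 h. The 24 h libraries lay just below the controls without overlap, a difference that was not called (log2 fold change -0.07 ± 0.03; limma, adjusted p = 0.666), and the 48 h libraries lay above both groups. JUN rose by 0.30 ± 0.03 against control (limma, adjusted p = 0.000292) and by 0.37 ± 0.03 against 24 h (limma, adjusted p = 8.57e-05), on 6950 to 10907 fragments per library.

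JUND (ENSG00000130522, chromosome 19, 18279760 to 18281622, minus strand), the JUN protein that is commonly present in resting cells, had 8.17, 8.53 and 8.99 FPKM in control, 9.70, 8.69 and 9.60 FPKM at 24 h and 11.6, 13.3 and 12.6 FPKM at 48 h. The control and 24 h libraries overlapped, and the 48 h libraries stood above both. It rose by 0.49 ± 0.06 against control (limma, adjusted p = 0.000752), a ratio of means of 1.46.

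The FOS family differed from the other families in that its most abundant member fell. FOSL1 (FRA-1; ENSG00000175592, chromosome 11, 65892049 to 65900573, minus strand), a subunit linked to invasion in RAS-transformed cells, had 177, 185 and 174 FPKM in control, 183, 186 and 186 FPKM at 24 h and 163, 166 and 165 FPKM at 48 h. The 48 h libraries all lay below the other 6. The drop was small, 0.11 ± 0.03 on the log2 scale against control (log2 fold change -0.11; limma, adjusted p = 0.0339) and 0.16 ± 0.03 against 24 h (log2 fold change -0.16; limma, adjusted p = 0.0062). The call against control was lost in 10 of 19 alternatives, at adjusted p of 0.0538 to 0.121, among them median-of-ratios scaling and the fits lacking 1 of these libraries: control replicates 1 and 2, 24 h replicate 2 and each 48 h library, and the direction was the same in all 19.

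FOS (ENSG00000170345, chromosome 14, 75278774 to 75282230, plus strand), the classical partner of JUN, was far scarcer than FOSL1. It had 3.81, 3.55 and 4.21 FPKM in control, 2.82, 3.33 and 4.40 FPKM at 24 h and 6.27, 6.32 and 5.87 FPKM at 48 h. The 48 h libraries lay above all others, and the 24 h libraries were spread widely (coefficient of variation 22.9%), with the highest value in the library that stood apart. FOS rose by 0.56 ± 0.11 against control (limma, adjusted p = 0.00701) and by 0.68 ± 0.11 against 24 h (limma, adjusted p = 0.00238). Without the third 24 h library the change against 24 h was 0.81 (limma, adjusted p = 0.000233).

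FOSL2 (FRA-2; ENSG00000075426, chromosome 2, 28392448 to 28417312, plus strand), known from osteoblasts and matrix genes, had 10.2, 10.1 and 10.8 FPKM in control, 10.3, 9.75 and 8.98 FPKM at 24 h and 11.04, 12.2 and 11.3 FPKM at 48 h. The lowest 48 h library lay just above the highest control. Against control the log2 fold change of 0.14 ± 0.06 was not called (limma, adjusted p = 0.0994), though it was called without the third 24 h library (adjusted p = 0.0426) and after median-of-ratios scaling (adjusted p = 0.0497), over a range of 0.0426 to 0.285 in all alternatives. Against 24 h FOSL2 rose by 0.23 ± 0.06 (limma, adjusted p = 0.0144), a call lost without 48 h replicate 2 (adjusted p = 0.057). The antisense gene FOSL2-AS1, which overlaps it, lay at 0.103 ± 0.0682 FPKM at 48 h and 0.0961 ± 0.0161 FPKM in control. The remaining family member, FOSB, was below the filter at 0.282 to 0.469 FPKM in control, 0.222 to 0.339 FPKM at 24 h and 0.439 to 0.577 FPKM at 48 h.

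ATF3 (ENSG00000162772, chromosome 1, 212565334 to 212620777, plus strand), a stress-induced factor that pairs with JUN proteins and often represses, had 1.51, 1.71 and 1.73 FPKM in control, 1.53, 1.80 and 1.55 FPKM at 24 h and 2.57, 2.65 and 2.62 FPKM at 48 h. The 48 h values were tightly grouped (coefficient of variation 1.58%) and above all others, on 125 to 245 fragments per library. It rose by 0.45 ± 0.07 against control (limma, adjusted p = 0.00153).

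Set directly against 24 h, all 8 factors that passed the filter without help from the 48 h libraries were called at 48 h, 7 of them higher and FOSL1 lower, with 16% of all genes tested called higher and 16.3% lower. The 48 h and 24 h groups did not overlap in any of these 8 factors, against 46.1% of all genes tested without overlap. EGR3 (0.90 ± 0.09; limma, adjusted p = 0.000241) and EGR2 (0.56 ± 0.11; limma, adjusted p = 0.00475) were higher as well. EGR3 and EGR2 passed the filter only through the 48 h libraries, so their calls carry no weight. All values against 24 h share the 48 h libraries with the comparison against control, so the pair of comparisons are not independent. In 24 h against control, log2 fold changes of the 10 factors ran from -0.13 for EGR3 to 0.11 for JUND, and 2 of the 10, JUN and EGR2, had groups that did not overlap, JUN lower and EGR2 higher at 24 h, against 13.2% of all genes tested.

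**Figure D2:**
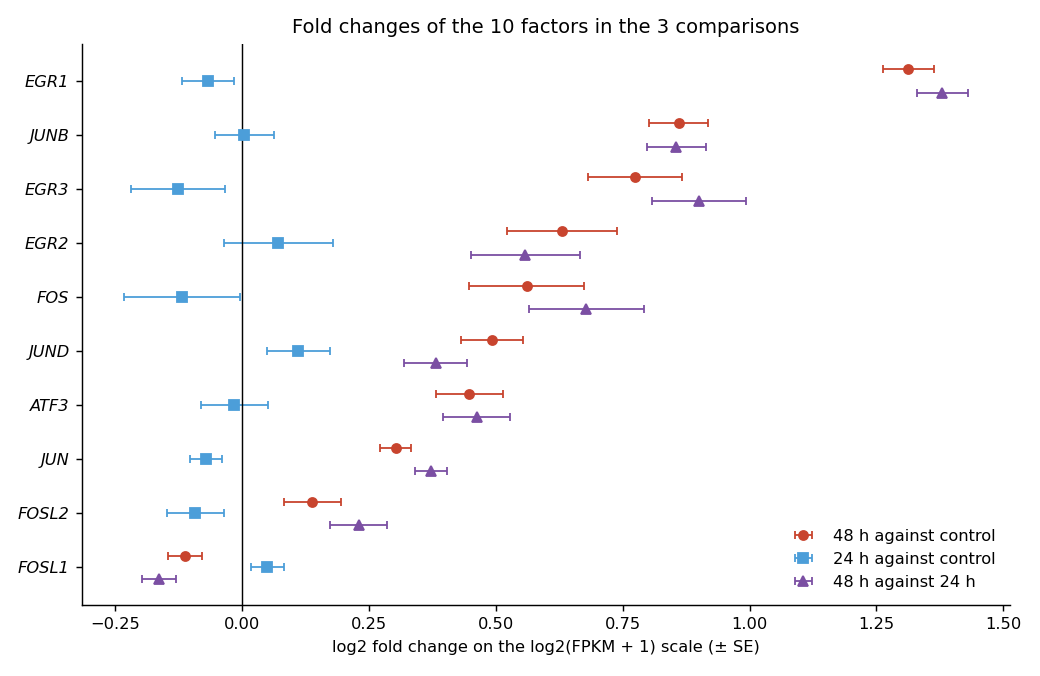
Log2 fold change on the log2(FPKM + 1) scale (x axis; bars, SE from limma) of each factor (y axis) in 48 h against control, 24 h against control and 48 h against 24 h. The 24 h against control points lie between -0.13 and 0.11, and the points of the other comparisons reach 1.31 and 1.38 for EGR1 and lie below 0 for FOSL1.

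Because FPKM is scaled to length, the 10 genes could be ordered by level. In control the order was FOSL1 (179 FPKM), JUN (105), EGR1 (30.0), JUNB (21.4), FOSL2 (10.4), JUND (8.56), FOS (3.86), ATF3 (1.65), EGR3 (0.702) and EGR2 (0.546), and no neighbours in it overlapped between libraries. At 48 h the order was the same except that JUND (12.5 FPKM) stood beside FOSL2 (11.5 FPKM) with overlapping libraries. FOSL1 and JUN were thus the most abundant factors in every group.

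The makeup of the JUN and FOS families shifted at 48 h, measured as shares of FPKM within a library, which do not depend on scaling between libraries. JUNB took 21.7% ± 0.868 of the summed JUN family at 48 h, against 15.8% ± 1.13 in control (SD, n = 3), and JUN took 71.4% ± 1.05 against 77.9% ± 1.39. JUND took 6.85% ± 0.454 at 48 h and 6.34% ± 0.273 in control, with exact permutation p = 0.2. In the FOS family FOSL1 took 90.3% ± 0.309 at 48 h and 92.6% ± 0.528 in control, while FOS took 3.37% ± 0.135 and 2.004% ± 0.221. FOSL2 took 6.29% ± 0.256 at 48 h and 5.37% ± 0.307 in control. For JUNB, JUN, FOSL1, FOSL2 and FOS the groups did not overlap, and the two-sided exact permutation test gave p = 0.1, its minimum with 3 libraries on each side.

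Summed over its 3 genes, the JUN family stood at 135 ± 0.838 FPKM in control, 131 ± 0.949 FPKM at 24 h and 182 ± 1.65 FPKM at 48 h. The FOS family stood at 193 ± 5.12 FPKM in control, 198 ± 1.75 FPKM at 24 h and 183 ± 2.07 FPKM at 48 h. FOS family transcripts were thus 58.8% ± 0.767 of both families together in control, 60.2% ± 0.367 at 24 h and 50.1% ± 0.255 at 48 h, a share computed after the values had been seen. Its 48 h libraries ran from 49.8% to 50.3%, below the control range of 58.1% to 59.6% (two-sided exact permutation p = 0.1, the smallest possible). FPKM are transcript levels and say nothing of protein amounts or of which pairs form.

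**Figure D3:**
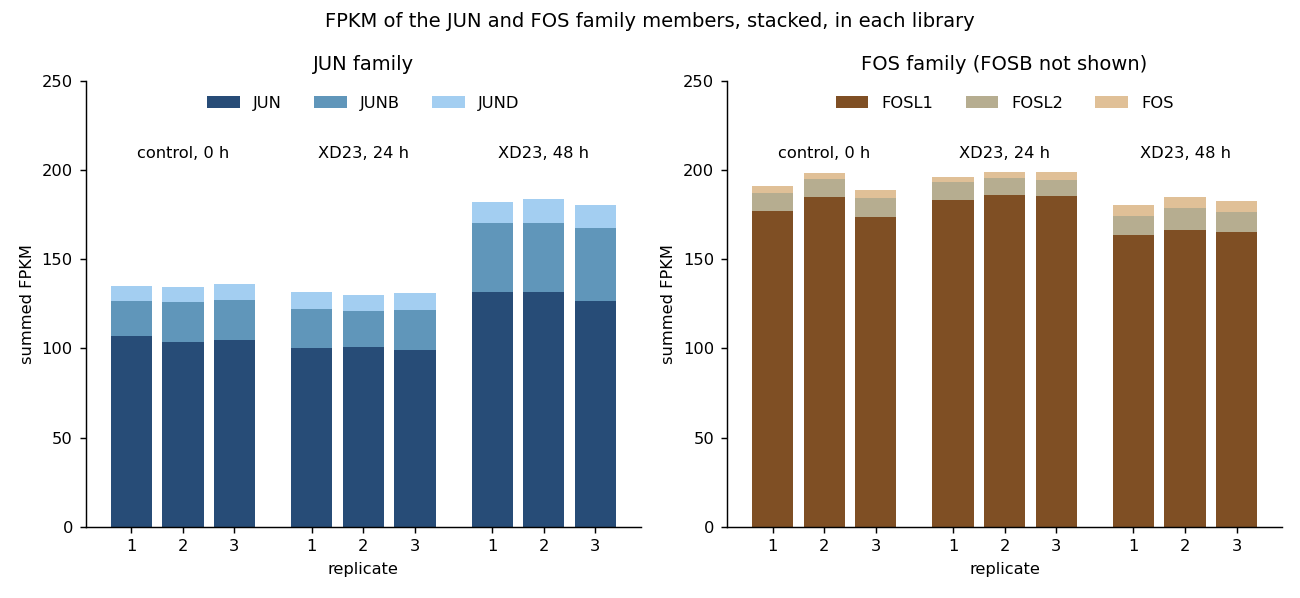
FPKM of JUN, JUNB and JUND (left) and of FOSL1, FOSL2 and FOS (right), stacked (y axis, summed FPKM, from 0), for replicates 1 to 3 of control, XD23 24 h and XD23 48 h (x axis). The JUN family sums are 182 ± 1.65 FPKM at 48 h and 135 ± 0.838 FPKM in control, while the FOS family sums are 183 ± 2.07 and 193 ± 5.12 FPKM in the same groups.

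Several partners of these factors rose with them at 48 h. The gene lists used from here on were also chosen with earlier results of these data known. Of 11 tested genes in a list of other AP-1, ATF and MAF leucine zipper factors, 4 rose, 0 fell and 7 were not called, against 13.3% higher and 15.2% lower over all genes. The cyclic AMP responsive factor CREB1 had 11.2 ± 0.757 FPKM at 48 h and 8.20 ± 0.347 FPKM in control (log2 fold change 0.41 ± 0.05; limma, adjusted p = 0.000806). The small MAF proteins MAFF (0.27 ± 0.05) and MAFK (0.16 ± 0.05) and the JUN partner ATF2 (0.22 ± 0.06) were the others. The MAFK call was lost in 9 of 19 alternatives (adjusted p up to 0.123), among them the replicate block (adjusted p = 0.0591) and the fits lacking any 1 control library, 24 h replicate 2, or 48 h replicate 1 or 2. The ATF2 call was lost in 4 of 19 (adjusted p up to 0.0761), including the fits that lacked control replicate 1, control replicate 2 or 48 h replicate 2.

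Both EGR co-repressors rose. NAB1 had 24.8 ± 1.12 FPKM at 48 h and 19.8 ± 0.223 FPKM in control (0.31 ± 0.05; limma, adjusted p = 0.00231). NAB2, itself a known EGR target, had 12.2 ± 0.767 FPKM at 48 h and 9.88 ± 0.171 FPKM in control (0.28 ± 0.05; limma, adjusted p = 0.00408). They were 2 of 5 tested genes in their list, against 13.3% called higher over all genes. In that list WT1, SP1 and SP3, zinc finger factors that bind similar GC-rich elements, were not called.

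Among 28 other tested immediate early genes 19 rose, 4 fell and 5 were not called, against 13.3% higher and 15.2% lower over all genes. Their median log2 fold change was 0.32, against -0.025 over all genes. CSRNP1, a nuclear protein induced by AXIN1, rose by 0.71 ± 0.06 (11.4 ± 0.584 FPKM at 48 h, 6.54 ± 0.175 FPKM in control), and KLF10, a TGF-β inducible zinc finger factor, by 0.66 ± 0.05 (25.1 ± 0.985 and 15.5 ± 0.631 FPKM). The 4 that fell were PLK2, a kinase that acts at centrioles (log2 fold change -1.08 ± 0.05), the matricellular genes CCN2 (-0.89 ± 0.06) and CCN1 (-0.50), and MYC (-0.22). CCN1 and CCN2 are known targets of SRF with MRTF cofactors and of YAP.

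Upstream of these factors, SRF itself was not called, at 14.6 ± 0.271 FPKM at 48 h and 15.3 ± 0.402 FPKM in control (-0.06 ± 0.04; limma, adjusted p = 0.319). Of 8 tested genes in its list the ETS factors ETS2 (0.56 ± 0.04; limma, adjusted p = 8.39e-05) and ETS1 (0.39 ± 0.05; limma, adjusted p = 0.000757) rose, none fell and 6 were not called. The ETS-type partners of SRF, ELK1 (0.04 ± 0.06), ELK3 (0.03 ± 0.03) and ELK4 (0.13 ± 0.05), were among the 6 not called. Over all genes 13.3% were called higher and 15.2% lower. The 23 tested genes of the MAP kinase cascades had a median of 0.05. Against these same shares over all genes, 16 of them were not called, 0 fell and 7 rose. They included the ribosomal S6 kinases RPS6KA3 (0.41 ± 0.04), RPS6KA1 (0.29 ± 0.06) and RPS6KA2 (0.20 ± 0.06) and the ERK activator MAP2K1 (0.30 ± 0.05). The RPS6KA2 call was lost in 9 of 19 alternatives (adjusted p up to 0.139), including each fit that lacked 1 control library, 1 of the 48 h libraries or 24 h replicate 2.

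**Figure D4:**
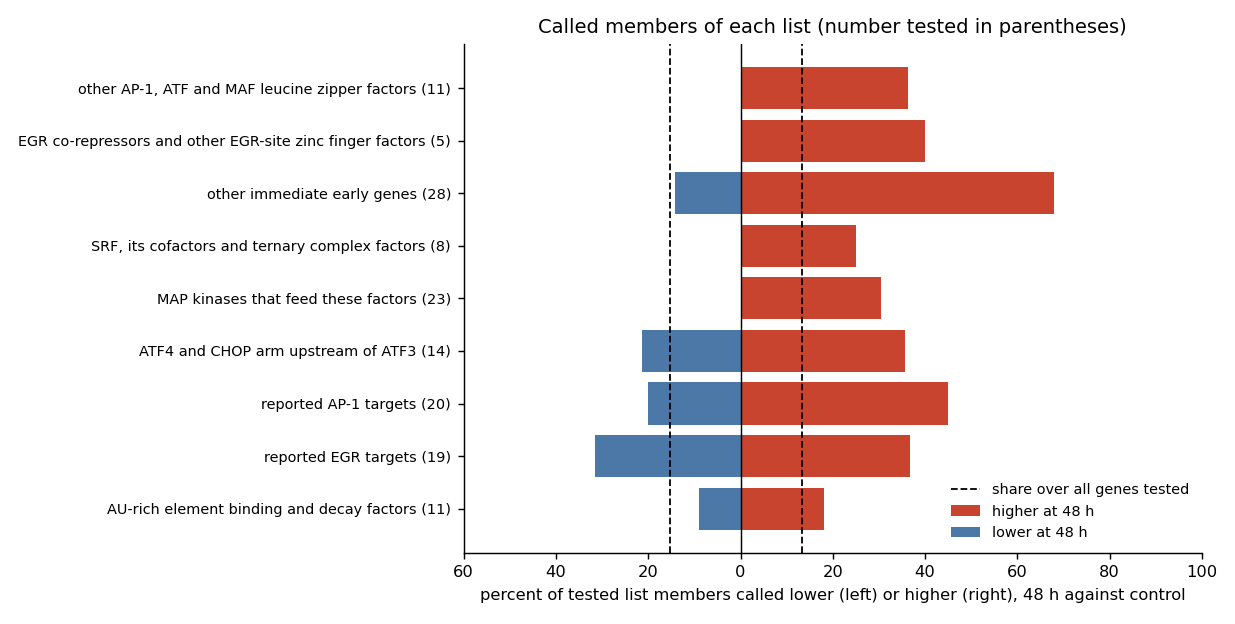
Percent of the tested members of each gene list (y axis, number tested in parentheses) called higher (right) or lower (left) at 48 h against control (x axis); dashed lines mark 13.3% higher and 15.2% lower over all genes tested. The bar of other immediate early genes stands for 19 of 28 higher and 4 of 28 lower.

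The next list covers the stress arm of ATF4 and DDIT3, and mixes genes upstream of ATF3 with other targets of that arm. Of its 14 tested genes 5 rose, 3 fell and 6 were not called, against 13.3% higher and 15.2% lower over all genes. The median of the list was 0.07. ATF4, the factor that switches on ATF3 in the integrated stress response, fell to 251 ± 8.73 FPKM at 48 h, against 296 ± 2.83 FPKM in control (log2 fold change -0.23 ± 0.03; limma, adjusted p = 0.00151), and its call was lost after quantile normalization (-0.16, adjusted p = 0.0521). DDIT3 (CHOP), its partner in that response, had 11.9 ± 1.32 FPKM at 48 h and 8.20 ± 0.101 FPKM in control and was not called (0.48 ± 0.16; limma, adjusted p = 0.0566). It was called in 6 of 19 alternatives, among them the replicate block (adjusted p = 0.0332), leaving out 24 h replicate 1 (0.00565) or 24 h replicate 3 (0.0175) and the fit to the 2 groups alone (0.00299), over a range of 0.00299 to 0.164. The mTOR inhibitor DDIT4 (0.86 ± 0.08), the glutathione-degrading enzyme CHAC1 (0.51 ± 0.06) and CEBPG (0.30 ± 0.04) rose, and ATF5 fell (-0.43 ± 0.07).

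Genes reported elsewhere as targets moved both ways. Of 20 tested AP-1 targets 9 rose, 4 fell and 7 were not called (median 0.24), against 13.3% higher and 15.2% lower over all genes. The protease MMP9 (0.96 ± 0.09), the cytokine IL11 (0.94 ± 0.06) and the membrane protease MMP14 (0.76 ± 0.07) rose, and the stromelysin MMP3, at 0.147 ± 0.0180 FPKM at 48 h and 0.886 ± 0.393 FPKM in control, was called lower (-0.69 ± 0.17). MMP3 passed the filter only through 2 control libraries and 1 library at 24 h, where it was high, so its call carries no weight in that count. The MMP3 call was lost without control replicate 1 (adjusted p = 0.0623) or 3 (0.06). Of 19 tested EGR targets 7 rose, 6 fell and 6 were not called (median 0.04), against the same shares over all genes. The adhesion molecule ICAM1 (1.47 ± 0.06) and the chemokine CCL2 (0.65 ± 0.11) rose, and the matrix glycoprotein THBS1 fell (-0.71 ± 0.06).

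Of 11 tested genes that bind or degrade mRNAs with AU-rich elements, such as those of FOS and JUN, 2 rose, 1 fell and 8 were not called, against 13.3% higher and 15.2% lower over all genes. ZFP36, a decay factor that is itself an immediate early gene, lay at 3.04 ± 0.428 FPKM at 48 h and 2.03 ± 0.232 FPKM in control (0.41 ± 0.12; limma, adjusted p = 0.0288), a call lost in 5 of 19 alternatives (adjusted p up to 0.104), including the fits that lacked control replicate 1, control replicate 2, 48 h replicate 2 or 48 h replicate 3. ZFP36L1 rose (0.16 ± 0.03) and the deadenylase subunit CNOT7 fell (-0.18 ± 0.04). In 24 h against control no member of any of the 9 lists was called.

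The genes whose profile over the 9 libraries was most like that of each factor were picked by Pearson's r of log2(FPKM + 1) among 10854 named protein-coding genes. Such r values mostly restate the contrast between the 48 h libraries and the rest, and no p is attached. For EGR1 they were PMEPA1, a feedback inhibitor of TGF-β signalling (r = 0.998), the syndecan SDC4 (0.997) and TGFB1 (0.997). For JUNB they were IRF2 (0.998), SMOC1 (0.995) and TUBA1A (0.995), for JUN LIPG (0.993), CCNG2 (0.993) and MCL1 (0.992), and for JUND ARRDC4 (0.989), MGAT4B (0.983) and RAB22A (0.981). For EGR3 they were HMGA2 (0.995), BHLHE40 (0.994) and CORO2B (0.994), and for EGR2 BTG2 (0.987), SPOCK1 (0.986) and TMCC3 (0.986). FOS was most like SMIM3 (0.993), PLEKHA1 (0.987) and CD70 (0.983), FOSL2 like RIPK1 (0.994), PLEKHG5 (0.984) and SNTB2 (0.982), and ATF3 like JAG1 (0.994), PDE4B (0.99) and JMJD6 (0.99). FOSL1 stood alone among the factors in being most like genes that were lower at 48 h, SF3B4 (0.971), UBXN8 (0.97) and C3orf80 (0.97). Among the factors themselves EGR1 and JUNB had the highest r (0.99), and FOSL1 had negative r with each of the other 9, from -0.943 with JUN to -0.789 with JUND.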

How the data were processed

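Polyadenylated RNA from 9 libraries of 143B cells was sequenced as read pairs, per the labels' protocols. The authors deposited 1 table of FPKM for 36810 genes with replicates kept apart. Per the submitters' processing notes, the tools were HISAT2, featureCounts, Subread and DESeq2, and hg38 was the build. Their versions and settings, the strand mode and the annotation release are not stated. Symbols and positions came from the supplied name table and GENCODE release 29 (GRCh38). Fragments were recovered from FPKM, length and library total (18341542 to 22901830), using the GENCODE exon length for FOSL1 and ATF3 and for other factors the shortest length giving whole fragments (tolerance 0.001) in the 9 libraries.

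Genes with at least 1 FPKM in at least 3 libraries (13657) were tested on log2(FPKM + 1) with limma 3.58.1 in R 4.3.3 (group means, eBayes with a trend, 6 residual degrees of freedom), two-sided, with Benjamini-Hochberg adjustment over all of them; a gene was called at adjusted p under 0.05. The pseudocount understates changes of scarce genes. Shares were tested with exact permutation tests (scipy 1.17.1). The code was tested on simulated data. The genes and the 9 lists (151 genes) were chosen with earlier results of these data known. Named were the 10 factors, up to 4 called genes per list with the largest fold change, EGR4, FOSB, NAB1, NAB2, SRF, ATF4 and DDIT3, and the 3 most similar genes per factor. CCN1, MYC, WT1, SP1, SP3, ELK1, ELK3, ELK4, HOOK2, FOSL2-AS1 and RNU6-548P were added after their values were seen. BATF, CDH1 and CD3E were not analysed here, and 1 gene that the rule names is not reported here. Alternatives were other pseudocounts, filters, scalings and variance models, a replicate block, a fit to 2 groups and leaving out each library.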

Additional observations from a re-analysis of the deposited data

Results flagged for a closer look

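For each of the 10 factors the change at 48 h differed from the change at 24 h, both taken against the same control libraries. The difference of these changes is the contrast of 48 h with 24 h in limma, called at an adjusted p of 2.88e-06 to 0.0144. On the log2(FPKM + 1) scale it was 1.38 for EGR1, 0.90 for EGR3, 0.86 for JUNB, 0.68 for FOS, 0.56 for EGR2, 0.46 for ATF3, 0.38 for JUND, 0.37 for JUN, 0.23 for FOSL2 and -0.16 for FOSL1. In each gene all 3 libraries at 48 h lay on that side of all 3 libraries at 24 h, as did 46.1% of all genes tested in one direction or the other. EGR2 and EGR3 had passed the filter only through the 48 h libraries, so their calls carry no weight. The FOSL2 and FOSL1 differences were each lost in 1 of 19 alternatives. Over all genes tested 16% were called higher and 16.3% lower in this contrast. Which part of it belongs to XD23 and which to time in culture was not tested, since no control was labelled 24 h or 48 h.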

How the results depend on the processing

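Of 561 values for single factors under the alternatives, 547 kept their side of the threshold, 12 lost a call and 2 gained one. The sign changed in 11 of them, all in 24 h against control and none called (FOSL1, JUNB and ATF3). The number of factors called higher at 48 h against control was 8, with 8 to 9 when a library was left out and 5 with the filter at 5 FPKM, which removes EGR2, EGR3 and ATF3 from the test. These counts include EGR2 and EGR3, which passed the filter only through the 48 h libraries. Over the other 8 factors the count was 6, with 6 to 7 when a library was left out and 5 at that filter. Over all genes tested 1811 were called higher, with 1213 to 2361 when a library was left out and 1320 of 7384 at that filter. The number of factors called lower was 1 (FOSL1), and 0 to 1 when a library was left out. It was 0 without a filter, after median-of-ratios scaling, after quantile normalization and without a trend. Over all genes tested 2080 were called lower, and 1371 to 2771 when a library was left out. Against 24 h the number of factors called lower was 1, and 0 after quantile normalization. In the fit to only the groups compared, 1 gene of the other leucine zipper list was lower at 48 h against control where 0 had been. Over all genes that fit called 2577 lower in place of 2080. Against 24 h the MAP kinase list had 5 higher in place of 10 and the ATF4 list 3 in place of 5. Over all genes 1742 were higher at 48 h against 24 h in that fit, in place of 2188. Shares within a library do not change with scaling between libraries. With 3 libraries per group, leaving out 1 cannot move a difference of shares by 1 SD pooled over the 2 groups compared. No conclusion is drawn from that limit, under which all 210 alternative values stayed. At 48 h against control the difference was 5.92 percentage points for JUNB in its family, 5.27 to 6.28 when a library was left out. It was -8.69 for the FOS family in both families together (-9.03 to -8.27) and -0.19 for EGR1 in its family (-0.44 to 0.002).

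Libraries with the same replicate number had correlated deviations of -0.057 to 0.239 over 9 pairs, 2 of them over 0.1, so the numbers were not taken to pair libraries, and not every library correlated best with its own number. With the replicate block 8 factors were higher and 1 lower at 48 h against control (6 and 1 without EGR2 and EGR3), and over all genes 1726 were higher and 2007 lower in place of 1811 and 2080. With array weights the calls at 24 h over all genes were 15 higher and 31 lower in place of 0 and 1, none of them among the 10 factors. Leaving out control replicate 1 or 48 h replicate 2 reduced the genes called lower at 48 h against control to 1385 and 1371. Without any other control or 48 h library the count was 1394 to 1620, so these libraries did not stand apart. The scarce factors, EGR2 and EGR3, rest on 40 to 228 fragments per library, which limits their precision.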
